A study of Mus musculus with 12 samples.

Results

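The small leucine-rich proteoglycans are a family of secreted matrix proteins, and 9 of their genes, Dcn, Bgn, Aspn, Lum, Fmod, Prelp, Omd, Ogn and Podn, were examined in mouse aorta before and during an aortic dissection model. They were taken by the gene name that the array design gives each probe. Each of the 9 had 1 probe and 1 spot, whose signal on every one of the 12 arrays was well above background, so that all 9 are among the 22761 genes tested. The 12 one-colour arrays, each of RNA from the aorta of male mice, form 4 groups of 3. WT mice carried the floxed Socs3 allele on both chromosomes (Socs3 fl/fl) and lacked SM22-Cre. Mice labelled smSocs3-KO were Socs3 fl/fl littermates with SM22-Cre, a transgene in which the smooth muscle promoter SM22 drives the recombinase. Each genotype was sampled before challenge and on day 3 of BAPN, which blocks the enzyme that crosslinks collagen and elastin, at 150 mg/kg/day together with AngII, a pressor hormone, at 1000 ng/kg/min from minipumps. The strain label is 129S5/SvEvBrd, C57BL6 and SJL for all mice, and the labels give no age and do not say whether each replicate was 1 mouse, so that p-values measure the spread between these samples, which may be technical.

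Proteins of this family have a core of leucine-rich repeats that binds to collagen and sets how fibrils assemble and how thick they grow. Most carry glycosaminoglycan chains, chondroitin or dermatan sulfate in class I (decorin, biglycan) and keratan sulfate in several members of class II (lumican, fibromodulin, osteomodulin). In the wall of arteries they are made by adventitial fibroblasts and by smooth muscle cells, and soluble forms bind growth factors such as Tgfb1 and engage Toll-like receptors on macrophages.

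On the mm9 build, the probe of Dcn lies at chr10:96980233-96980292 and that of Lum at chr10:97035210-97035269. Those of Aspn (chr13:49662479-49662538), Omd (chr13:49687847-49687906) and Ogn (chr13:49719549-49719608) lie close to each other, as do those of Prelp (chr1:135806855-135806914) and Fmod (chr1:135943998-135944057). Podn was measured at chr4:107687484-107687543 and Bgn at chrX:70738554-70738613. In the RefSeq table of GRCm38.p6 the genes Ecm2, Aspn, Omd and Ogn follow each other on chromosome 13, Dcn, Lum, Kera and Epyc on chromosome 10, and Optc, Prelp and Fmod on chromosome 1. The exon or untranslated position of each probe was not determined here.

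Because Omd and Ogn, which neighbour each other on chromosome 13, had the lowest values of the 9 in the mean of both challenge responses, the 250 bases before their start sites are shown with those of Aspn, the next gene of that cluster, which did not share this pattern. The sequences are from RefSeq on GRCm38.p6, plus strand, at chr13:49582212-49582461 for Omd, chr13:49607765-49608014 for Ogn and chr13:49544193-49544442 for Aspn. Capitals mark matches on either strand to TATAAA, the TATA box.
Omd: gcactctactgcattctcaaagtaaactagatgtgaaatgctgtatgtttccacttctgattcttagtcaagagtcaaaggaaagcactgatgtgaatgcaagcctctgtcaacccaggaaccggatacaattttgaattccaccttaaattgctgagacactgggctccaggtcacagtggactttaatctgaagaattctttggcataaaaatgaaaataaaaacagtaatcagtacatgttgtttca
Ogn: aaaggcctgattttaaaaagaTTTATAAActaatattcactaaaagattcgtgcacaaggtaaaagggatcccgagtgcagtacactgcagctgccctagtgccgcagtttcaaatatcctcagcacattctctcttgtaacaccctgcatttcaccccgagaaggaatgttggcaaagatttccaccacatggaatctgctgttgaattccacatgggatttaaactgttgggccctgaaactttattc
Aspn: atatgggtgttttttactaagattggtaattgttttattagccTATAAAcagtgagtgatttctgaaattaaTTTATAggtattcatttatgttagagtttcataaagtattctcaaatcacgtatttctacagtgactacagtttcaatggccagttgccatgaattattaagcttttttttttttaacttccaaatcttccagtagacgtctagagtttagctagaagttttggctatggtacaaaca
Ogn held 2 overlapping matches, from 229 to 222 bases before the start, Aspn held 2 and Omd none. Promoter sequence was at hand for 7 of the 9 genes. Besides TATAAA, present in 12.4% of 32851 mouse promoter windows of the same length, the Stat motif TTCNNNGAA (7.02% of windows) and the AP-1 motif TGANTCA (6.75%) were searched on both strands. Neither was in the windows of these 7 genes. A match is only a description of these letters.

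Values below are log2 signals from which the 75th percentile of the same array was subtracted. Between 55.4% and 61.2% of spots per array were well above background (signal above background by 13 times its SD), and none was saturated. Correlations across genes between arrays of 1 group ran from 0.964 to 0.992. Slide 1 held the 6 WT arrays with replicate 1 of the unchallenged smSocs3-KO group, and slide 2 held the remaining 5, so that genotype and slide can hardly be told apart. Socs3 itself lay between 0.30 and 0.75 in WT and between 0.24 and 1.46 in smSocs3-KO before challenge, and between 0.64 and 2.30 and between 2.28 and 4.13 at day 3. Since Socs3 did not show a lower level there, smSocs3-KO is used below as the name of a label only. All 10 smooth muscle, all 8 endothelial and all 12 fibroblast markers listed were well above background on every array. WT day 3 replicate 4 differed from the other day 3 arrays. Its 8 macrophage markers averaged 2.18, within the 2.14 to 2.22 of WT before challenge, compared with 3.39 and 3.00 in replicates 1 and 3. Its 10 smooth muscle markers averaged 6.14, compared with 5.26 and 5.20.

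**Figure D1:**
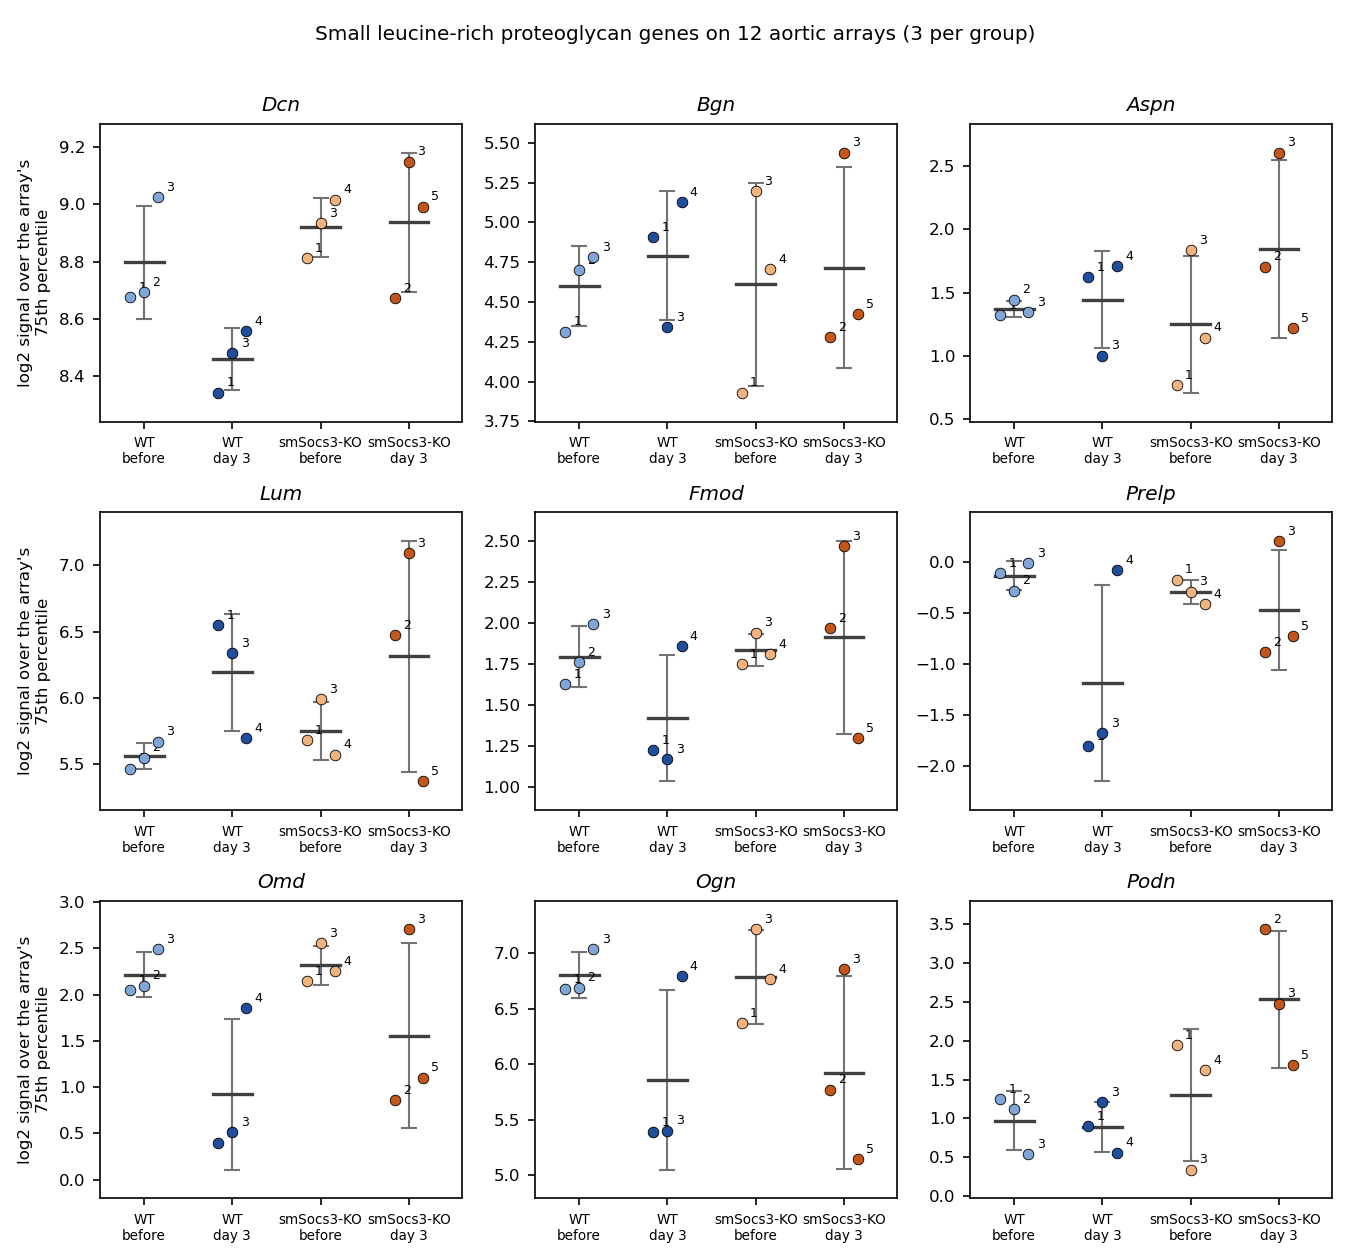
Log2 signal of each proteoglycan gene over the 75th percentile of its array (y axis, a scale of its own in each panel) in the 4 groups (x axis). Points are single arrays with their replicate number, horizontal bars group means and whiskers SD of 3 arrays; for Omd, Ogn and Prelp, replicates 1 and 3 of WT day 3 lie below all arrays before challenge while replicate 4 lies near them.

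Among the class I genes, decorin (Dcn), which binds to collagen fibrils and Tgfb1, was at 8.68, 8.69 and 9.02 on the WT arrays before challenge and at 8.34, 8.48 and 8.56 at day 3. On the arrays labelled smSocs3-KO it was at 8.81, 8.93 and 9.02 before challenge and at 8.67, 9.15 and 8.99 at day 3. WT at day 3 was the lowest group and overlapped neither WT before challenge nor smSocs3-KO at day 3. Biglycan (Bgn), the close relative of decorin that also acts on Toll-like receptors, was at 4.31, 4.70 and 4.78 in WT before challenge, at 4.91, 4.34 and 5.13 in WT at day 3, at 3.93, 5.20 and 4.71 in smSocs3-KO before challenge and at 4.28, 5.44 and 4.42 at day 3. All 4 groups overlapped, and their means lay within 0.19. Asporin (Aspn), which inhibits Tgfb1, was at 1.33, 1.45 and 1.35 in WT before challenge, at 1.62, 1.003 and 1.71 in WT at day 3, at 0.77, 1.84 and 1.15 in smSocs3-KO before challenge and at 1.71, 2.61 and 1.22 at day 3. Its highest array was smSocs3-KO day 3 replicate 3, and the groups overlapped.

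In class II, lumican (Lum), which limits the thickness of collagen fibrils, was at 5.47, 5.55 and 5.67 in WT before challenge and at 6.55, 6.34 and 5.70 in WT at day 3. On the arrays labelled smSocs3-KO it was at 5.68, 5.99 and 5.57 before challenge and at 6.48, 7.09 and 5.37 at day 3. In WT every day 3 array lay above every array before challenge, replicate 4 by a margin far below the other two, and in smSocs3-KO replicate 5 lay below all 3 arrays before challenge. Fibromodulin (Fmod), which competes with lumican for a site on collagen, was at 1.63, 1.76 and 1.99 in WT before challenge, at 1.23, 1.17 and 1.86 in WT at day 3, at 1.75, 1.94 and 1.81 in smSocs3-KO before challenge and at 1.97, 2.47 and 1.30 at day 3. The groups overlapped. Prelp, a protein that ties basement membranes to collagen, was at -0.10, -0.28 and -0.01 in WT before challenge and at -1.81, -1.68 and -0.08 in WT at day 3, so that replicates 1 and 3 were low and replicate 4 was not. In smSocs3-KO it was at -0.17, -0.29 and -0.41 before challenge and at -0.88, 0.21 and -0.72 at day 3.

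Osteomodulin (Omd), a keratan sulfate proteoglycan first known from bone, was at 2.05, 2.10 and 2.49 in WT before challenge and at 0.39, 0.51 and 1.86 in WT at day 3. In smSocs3-KO it was at 2.15, 2.55 and 2.26 before challenge and at 0.86, 2.70 and 1.103 at day 3. The WT groups did not overlap, whereas in smSocs3-KO replicate 3 at day 3 was above all 3 arrays before challenge. Osteoglycin or mimecan (Ogn), the class III member, was at 6.68, 6.69 and 7.04 in WT before challenge and at 5.38, 5.40 and 6.79 in WT at day 3. In smSocs3-KO it was at 6.37, 7.22 and 6.77 before challenge and at 5.77, 6.86 and 5.15 at day 3. In each genotype 2 of 3 day 3 arrays lay below every array before challenge, and the other one did not. Podocan (Podn), the class V member, known to restrain smooth muscle growth, was at 1.25, 1.12 and 0.54 in WT before challenge and at 0.90, 1.21 and 0.56 in WT at day 3. In smSocs3-KO it was at 1.94, 0.34 and 1.62 before challenge and at 3.43, 2.48 and 1.68 at day 3. At day 3 every array labelled smSocs3-KO lay above every WT array.

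Ordered by group mean, smSocs3-KO at day 3 was highest for Dcn, Lum, Fmod, Aspn and Podn, and WT at day 3 was lowest for Dcn, Fmod, Ogn, Prelp, Omd and Podn. Neighbours in these orders overlapped in every case but 1, the step from WT before challenge to WT at day 3 for Dcn.

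The first comparison asked what 3 days of BAPN + AngII did in WT aortas. Omd had the largest difference of the 9, with 2.21 ± 0.24 (SD, n = 3) before challenge and 0.92 ± 0.81 at day 3, a log2 difference of -1.29 (SE 0.48, 0.41-fold). Prelp differed by -1.06 (SE 0.42), from -0.13 ± 0.14 to -1.19 ± 0.96, and Ogn by -0.95 (SE 0.46), from 6.81 ± 0.20 to 5.86 ± 0.81. Lum differed by 0.63 (SE 0.37), Dcn by -0.34 (SE 0.17), Fmod by -0.38 (SE 0.28), and Bgn (0.19), Aspn (0.07) and Podn (-0.08) by less than their standard errors. None of the 9 passed an adjusted p under 0.05 in limma, where 4.68% of all genes did, and none passed the paper's threshold (more than a 4-fold change or less than 0.25-fold, at p under 0.01), which 1.28% of genes did. The adjusted p was 0.123 for Omd, 0.140 for Prelp and 0.220 for Ogn. At an unadjusted p under 0.05 there were 2, Omd and Prelp, compared with 6055 of all 22761 genes. The groups did not overlap for 3 of 9, Dcn, Lum and Omd, compared with 35.3% of all genes. The median of the 9 differences was -0.34 and that of all genes was -0.02.

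This result rested on 1 array. Without WT day 3 replicate 4, 2 of the 9 passed the adjusted threshold, as did 15.9% of all genes. Omd then differed by -1.76 (limma adjusted p = 0.0279) and Prelp by -1.61 (adjusted p = 0.00661), while Ogn differed by -1.41 (adjusted p = 0.0506). Lum differed by 0.88 (adjusted p = 0.164). Without replicate 1 or replicate 3, none of the 9 passed, and in each of these fits 0 of all 22761 genes did. Smooth muscle markers averaged 5.20 to 6.14 in WT at day 3 and 6.04 to 6.06 before challenge, and macrophage markers averaged 2.18 to 3.39 and 2.14 to 2.22. None of the 12 fibroblast markers passed in WT, and their mean lay between 2.55 and 3.23 at day 3 and between 2.97 and 3.09 before challenge. In whole tissue, fewer cells of a type and less RNA per cell cannot be told apart, and the part of these markers in the values was not tested.

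**Figure D2:**
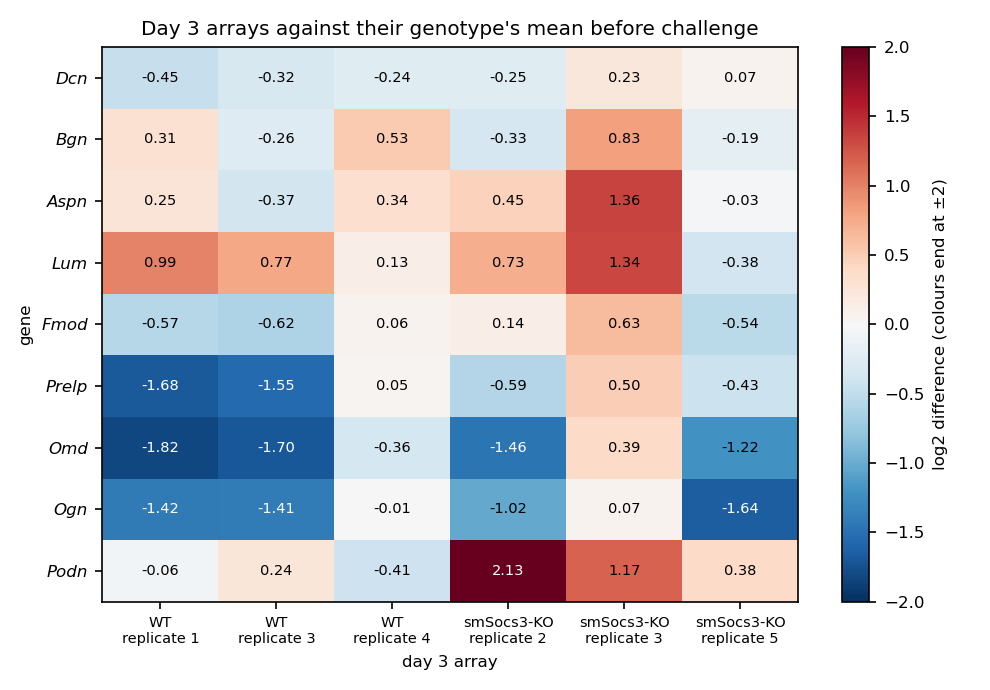
Log2 signal of each gene (rows) on each day 3 array (columns) minus the mean of the same genotype before challenge; red is higher, blue lower, and numbers give the difference. On smSocs3-KO replicate 3 all 9 genes are above the mean before challenge, and on WT replicates 1 and 3 Omd, Ogn and Prelp are between -1.82 and -1.41.

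The second comparison was the same challenge on the arrays labelled smSocs3-KO. Podn had the largest difference, from 1.30 ± 0.85 before challenge to 2.53 ± 0.87 at day 3, a log2 difference of 1.23 (SE 0.48, 2.34-fold, limma adjusted p = 0.161). Ogn differed by -0.86 (SE 0.46), Omd by -0.76 (SE 0.48), Aspn by 0.59 (SE 0.36) and Lum by 0.56 (SE 0.37). Prelp (-0.18), Bgn (0.10), Fmod (0.08) and Dcn (0.02) were within their standard errors. None of the 9 passed the adjusted threshold, which 2.45% of all genes did, and none the paper's threshold (1.63% of genes). Only Podn had an unadjusted p under 0.05, compared with 5412 of all 22761 genes. For 0 of 9 were the groups free of overlap, compared with 28.1% of all genes. The median of the 9 was 0.08, compared with -0.06 over all genes.

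Here 1 array stood apart for the proteoglycan genes. On smSocs3-KO day 3 replicate 3 all 9 lay above the genotype's mean before challenge, by a median of 0.63, whereas on replicate 5 the number above was 2 of 9 (median -0.38) and on replicate 2 it was 4 of 9 (median -0.25). Over all genes the medians of these 3 arrays were between -0.08 and -0.005. Without replicate 3, Omd differed by -1.34 (limma adjusted p = 0.100) and Ogn by -1.33 (adjusted p = 0.124), Lum by 0.17 and Aspn by 0.21. Again none of the 9 passed, where 1.57% of all genes did. The 12 fibroblast markers averaged 3.53 on replicate 3, 3.40 on replicate 2 and 3.01 on replicate 5, compared with 2.93 to 3.23 before challenge. The 7 adipocyte markers averaged 3.51, 1.28 and 3.47 on these arrays. The part of these markers in the values was not tested. Within slide 2, which held 2 arrays before challenge and all 3 at day 3, Podn differed by 1.55, Ogn by -1.07, Omd by -0.85 and Lum by 0.53.

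Taking the mean of both challenge responses, which uses all 12 arrays, Omd differed by -1.03 (SE 0.34, limma adjusted p = 0.0515) and Ogn by -0.90 (SE 0.33, adjusted p = 0.0683). Lum differed by 0.60 (SE 0.26, adjusted p = 0.119) and Prelp by -0.62 (SE 0.30, adjusted p = 0.147). None of the 9 passed the adjusted threshold, compared with 22.7% of all genes. At an unadjusted p under 0.05 there were 3, Omd, Ogn and Lum, compared with 8899 of all 22761 genes. The 3 genes of class I had values from -0.16 to 0.33. The values turned on the arrays that stood apart. With WT day 3 replicate 4 left out, Ogn (-1.14), Omd (-1.26) and Prelp (-0.89) passed, with adjusted p = 0.0164, 0.0135 and 0.00815, as did 28.3% of all genes. Without smSocs3-KO day 3 replicate 3, Ogn (-1.14) and Omd (-1.31) passed, with adjusted p = 0.0260 and 0.0130, as did 19.9% of all genes. Without smSocs3-KO day 3 replicate 5, Lum (0.83, adjusted p = 0.0226) was the only one of the 9 to pass, where 15.8% of all genes did.

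**Figure D3:**
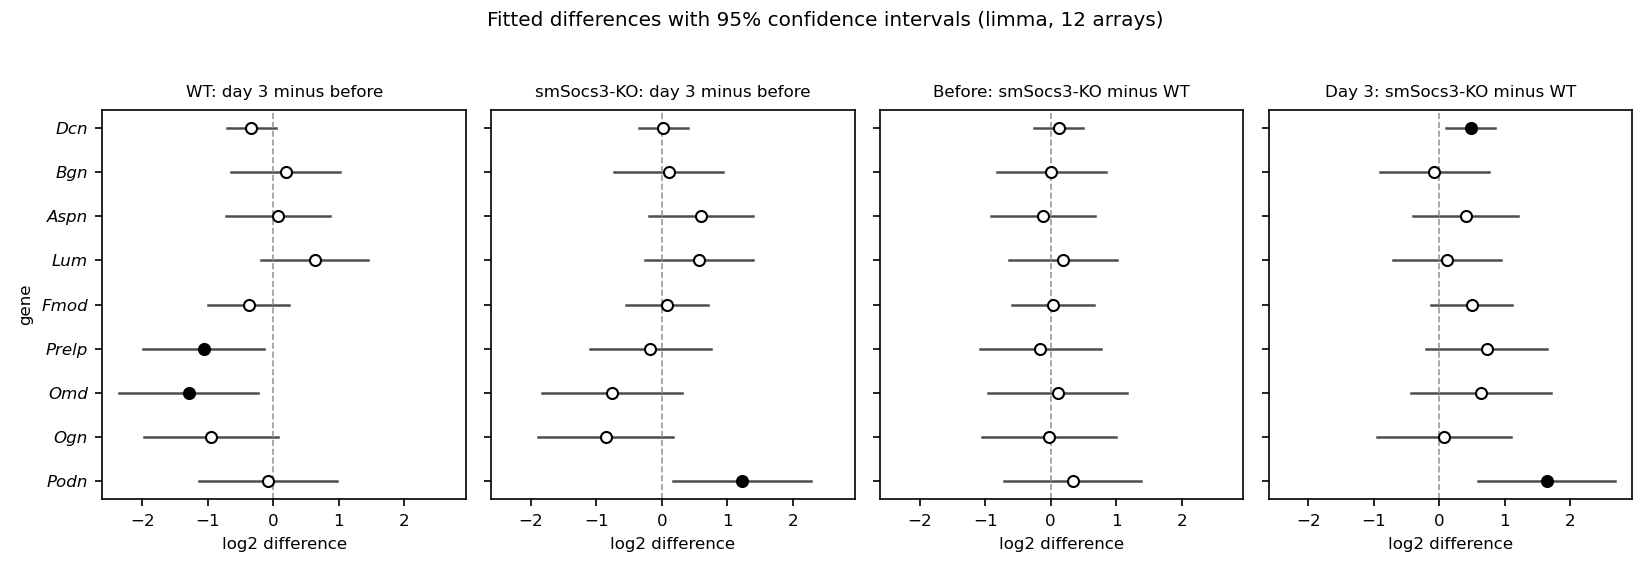
Fitted log2 differences (x axis) of the 9 genes (y axis) in 4 comparisons, with 95% confidence intervals from limma; filled points have an unadjusted p under 0.05. None passed an adjusted p under 0.05, and 5 of the 36 intervals leave out 0.

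The genotypes were compared before challenge and at day 3. Before challenge the 9 differences, smSocs3-KO minus WT, ran from -0.16 for Prelp to 0.33 for Podn, with a median of 0.04 (all genes 0.004). None of the 9 passed the adjusted threshold (0.0264% of all genes), the paper's threshold (0.242% of genes) or an unadjusted p under 0.05 in limma. Of all 22761 genes, 1001 had such an unadjusted p. For 0 of 9 were the groups free of overlap, compared with 11.1% of all genes. The 95% interval was from -0.25 to 0.50 for Dcn, from -0.82 to 0.84 for Bgn and from -0.72 to 1.39 for Podn, so that these 3 arrays per group leave room for differences of that size. Within slide 1 only smSocs3-KO replicate 1 could be set against the WT arrays, and there Podn was higher by 0.98 and Bgn lower, at -0.67.

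At day 3 the difference of Podn was 1.64 (SE 0.48, 3.11-fold), between 0.89 ± 0.32 in WT and 2.53 ± 0.87 in smSocs3-KO, and that of Dcn was 0.48 (SE 0.17, 1.39-fold), between 8.46 ± 0.11 and 8.94 ± 0.24. The adjusted p in limma was 0.137 for Podn and 0.212 for Dcn. Prelp differed by 0.72 (SE 0.42), Omd by 0.64 (SE 0.48), Fmod by 0.49 (SE 0.28) and Aspn by 0.40 (SE 0.36), and Lum (0.12), Ogn (0.07) and Bgn (-0.08) by less than their standard errors. In all, 8 of 9 values were above 0, with a median of 0.48, compared with -0.08 over all genes. Without smSocs3-KO day 3 replicate 3, 6 of 9 were above 0 and the median was 0.06, with Omd at 0.06, Aspn at 0.02, Fmod at 0.21 and Prelp at 0.38, while Podn stayed at 1.66 and Dcn at 0.37. None passed the adjusted threshold or the paper's threshold, each of which 1.11% of genes passed. At an unadjusted p under 0.05 there were 2, Podn and Dcn, compared with 3685 of all 22761 genes. The groups did not overlap for the same 2 of 9, compared with 20.5% of all genes. The WT arrays at day 3 were all on slide 1 and the smSocs3-KO arrays all on slide 2. With slide as a fixed block, Podn differed by 2.60 (SE 0.82, adjusted p = 0.239) and Dcn by 0.31 (adjusted p = 0.601), where 0% of all genes passed. That slide term rests on the unchallenged smSocs3-KO arrays, the only group present on both slides, with replicate 1 alone on slide 1. Between these, slide 2 minus slide 1, Podn differed by -0.96, so the fit cannot separate genotype from slide with any precision. Without WT day 3 replicate 4, Prelp differed by 1.28 (adjusted p = 0.0491) and was the only one of the 9 to pass, where 2.70% of all genes did.

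Of the 12 fibroblast markers, 2 passed the threshold at day 3 with higher values under the smSocs3-KO label, both named after their values were seen. These were Dpt, whose product dermatopontin binds to decorin (1.99, limma adjusted p = 0.0230), and Pi16, a marker of adventitial fibroblasts (1.64, adjusted p = 0.0467). Neither call held without smSocs3-KO day 3 replicate 3, where 0 of the 12 passed, or with slide as a fixed block, where 0 of all 22761 genes did. The mean of the 12 lay between 2.55 and 3.23 in WT and between 3.01 and 3.53 in smSocs3-KO. The 8 mesothelial markers averaged between -1.44 and 0.52 in WT and between 1.56 and 2.19 in smSocs3-KO at day 3, and none of them passed the adjusted threshold. Before challenge, where Podn and Dcn differed by 0.33 and 0.12, these markers already averaged between -1.15 and 1.08 in WT and between 1.56 and 2.83 in smSocs3-KO. The 7 adipocyte markers averaged 0.58 to 3.29 and 1.28 to 3.51. The part of these cells in the values of Podn and Dcn was not tested.

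Whether the challenge response differed between the genotypes was asked by the interaction. The largest value was that of Podn, 1.30 (SE 0.67, limma adjusted p = 0.958), followed by Prelp with 0.88 (SE 0.59, adjusted p = 0.970). None of the 9 passed, 0% of all genes did (0 of 22761), and none of the 9 had an unadjusted p under 0.05, while 1214 of all genes did. For Omd, the 95% interval from -0.97 to 2.03 includes differences larger than the response itself.

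**Figure D4:**
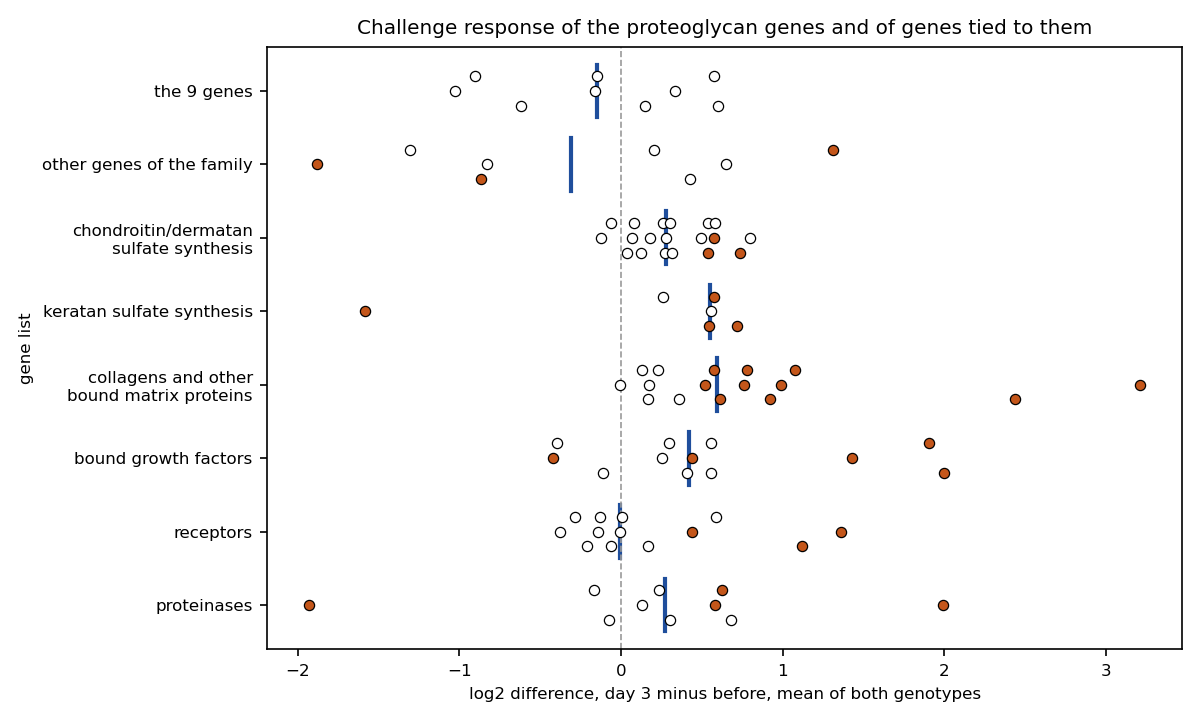
Log2 difference between day 3 and before challenge, mean of both genotypes (x axis), for each tested gene of 8 lists (y axis). Filled points passed an adjusted p under 0.05 in limma and blue bars are list medians; of the 9 proteoglycan genes none is filled, of 16 matrix proteins they bind 10 are.

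Genes around the 9 proteoglycans were read in the mean of both challenge responses, beside 22.7% of all genes passing and a median of all genes of -0.05. Of 9 other genes of the family, 8 were tested, of which 1 rose and 2 fell (median -0.31). Ecm2, the first gene of the chromosome 13 cluster before Aspn, Omd and Ogn, fell by 1.88 (SE 0.43, adjusted p = 0.0142). It lay between 2.59 and 3.24 on the 6 arrays before challenge and between -0.31 and 2.39 on those at day 3, without overlap. Chadl, a cartilage member of the family, fell by 0.87 (SE 0.18, adjusted p = 0.0108), from between 1.88 and 2.14 to between 0.78 and 1.77. Epyc, which lies beyond Lum on chromosome 10, rose by 1.31 (SE 0.39, adjusted p = 0.0368), with overlap between groups. Without WT day 3 replicate 4, a choice made after the data were seen, 1 of the 8 rose and 4 fell.

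Of 16 tested matrix proteins that these proteoglycans bind, 10 rose and none fell, with a median of 0.59. Thbs1, a matrix protein that activates Tgfb1, rose by 3.21 (SE 0.57, adjusted p = 0.00731), Col12a1, a collagen on the surface of fibrils, by 2.44 (SE 0.42, adjusted p = 0.00686) and Col5a1, which starts fibrils, by 0.76 (SE 0.14, adjusted p = 0.00749). Without WT day 3 replicate 4, 9 of the 16 rose, and without smSocs3-KO day 3 replicate 3, 7 did. Of 12 growth factors and related proteins, 4 rose and 1 fell (median 0.42). Wisp2 rose by 1.43 (adjusted p = 0.00279), Igf1 by 1.90 (adjusted p = 0.00490) and Wisp1, a ligand of decorin and biglycan, by 1.99 (adjusted p = 0.00631). Bmp2, outside the naming rule and chosen after its value was seen, fell by 0.42 (adjusted p = 0.0363). When WT day 3 replicate 4 was left out, 6 of the 12 rose and 2 fell.

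Of 19 tested enzymes of chondroitin and dermatan sulfate synthesis, 3 rose, and 17 had values above 0 (median 0.28). These were Chpf2 (0.74, adjusted p = 0.0132) and Chsy1 (0.58, adjusted p = 0.0342), which build the chain, and Dse, which turns chondroitin into dermatan sulfate (0.54, adjusted p = 0.0435). Of 6 tested enzymes of keratan sulfate synthesis, Chst1, the sulfotransferase of keratan sulfate (0.54, adjusted p = 0.0103), B4galt1 (0.72, adjusted p = 0.0130) and B3gnt2 (0.58, adjusted p = 0.0168) rose. Chst4, named after its value was seen, fell by 1.58 (adjusted p = 0.0379).

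Of 13 tested receptors, 3 rose (median -0.01). These were Cd14, the co-receptor of Toll-like receptors (1.36, adjusted p = 0.00808), Cd44 (1.12, adjusted p = 0.0128) and Egfr, a receptor of decorin (0.44, adjusted p = 0.0373). Cd14 and Cd44 are also made by macrophages, of whose 8 markers 5 rose, Cd68 by 1.82 (adjusted p = 0.00681), Mrc1 by 1.43 (adjusted p = 0.00723) and Csf1r by 0.76 (adjusted p = 0.0122). The macrophage list averaged 2.14 to 2.44 on the 6 arrays before challenge, 2.18 to 3.39 in WT at day 3 and 3.20 to 3.36 in smSocs3-KO at day 3, and the part of these cells in the receptor values was not tested.

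Of 10 tested proteinases and their helpers, 3 rose and 1 fell (median 0.27). Mmp3, which degrades decorin, rose by 1.99 (adjusted p = 0.00385), Pcolce by 0.58 (adjusted p = 0.00781) and Bmp1, which cleaves the propeptides of biglycan and osteoglycin and was named after its value was seen, by 0.62 (adjusted p = 0.0182). Mmp9 also passed, with lower values at day 3 (adjusted p = 0.0161). At day 3 it was well above background on none of 3 WT arrays and 1 of 3 smSocs3-KO arrays, so that no exact difference is given. In WT it was at least 2.28-fold lower than before challenge (adjusted p = 0.0545). For this bound, each day 3 array gave its lowest signal well above background or the signal of Mmp9, whichever was higher. The mean of these was set against the group mean before challenge.

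Cell type lists were read the same way. Of 10 smooth muscle markers 4 fell and none rose, Myh11 by 1.09 (adjusted p = 0.0114), Mylk by 0.83 (adjusted p = 0.0201) and Myocd by 0.62 (adjusted p = 0.0399) among them, and without WT day 3 replicate 4 it was 7 that fell. Of 12 fibroblast markers 2 rose, Thy1 by 1.51 (adjusted p = 0.00540) and Mfap5 by 0.77 (adjusted p = 0.0110), with a list median of 0.005, whereas Dpp4 was at -0.80 (adjusted p = 0.0938). Of 4 tested chondrocyte markers 1 rose, Col11a1. It was well above background on no array before challenge and was at least 2.92-fold higher at day 3 in WT, where 2 of 3 arrays measured it (adjusted p = 0.0416). Col2a1 and Matn1, defining genes of cartilage, had no probe that passed the filter. Of 8 endothelial markers 1 rose, Emcn (1.004, adjusted p = 0.0232), while Erg was at -0.33 (adjusted p = 0.0625) and Tie1 at 0.51 (adjusted p = 0.0726). Of 4 tested neutrophil markers 1 rose, Ly6g (1.23, adjusted p = 0.00511), and S100a8 (1.78) and S100a9 (1.83) did not pass. Of 6 lymphocyte markers 1 fell, Cd3g (adjusted p = 0.0122), which was well above background on 1 of 3 WT arrays at day 3, so that its size is not given. None of 7 adipocyte, 8 mesothelial or 4 skeletal muscle markers passed, and of 4 red blood cell markers 1 did, Slc4a1 (1.499, adjusted p = 0.0408).

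For each proteoglycan gene, the genes with the most similar profile were found by Pearson r over the 12 arrays, among 12339 named genes well above background on all arrays. They were chosen for this likeness, so no p is given, and the arrays share groups and slides. Dcn was closest to C1rb (r = 0.918, Spearman rho = 0.895) and Polr3gl (r = 0.900, rho = 0.860). Bgn was closest to Ankra2 (r = 0.959, rho = 0.965), Serinc1 (r = 0.948, rho = 0.958) and Tecr (r = 0.945, rho = 0.937). Aspn was closest to Dcbld2 (r = 0.935, rho = 0.916), Itm2b (r = 0.921, rho = 0.902) and Id4 (r = 0.904, rho = 0.930).

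Lum was closest to Heph (r = 0.944, rho = 0.909), Aoah (r = 0.935, rho = 0.923) and Angptl1 (r = 0.924, rho = 0.888). Fmod was closest to Gstt1 (r = 0.932, rho = 0.937), Zkscan14 (r = 0.915, rho = 0.846) and Gstm6 (r = 0.885, rho = 0.776). Prelp was closest to Gstm1 (r = 0.972, rho = 0.727), Rdh5 (r = 0.950, rho = 0.783) and Gnao1 (r = 0.950, rho = 0.643).

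Omd was closest to Sik3 (r = 0.971, rho = 0.937), Gstm3 (r = 0.968, rho = 0.895) and again Rdh5 (r = 0.961, rho = 0.930). Ogn was closest to Ntf3 (r = 0.984, rho = 0.944), Poli (r = 0.984, rho = 0.993) and Pcmtd2 (r = 0.976, rho = 0.923). Podn was closest to Mnt (r = 0.899, rho = 0.853), Arrdc1 (r = 0.885, rho = 0.867) and Maf (r = 0.872, rho = 0.825). After the group means were subtracted, r for the nearest gene was 0.832 for Dcn, 0.962 for Bgn, 0.984 for Lum, 0.918 for Fmod, 0.978 for Ogn, 0.980 for Prelp, 0.926 for Aspn, 0.988 for Omd and 0.745 for Podn. These values come from the same arrays by which the genes were chosen. They are therefore no separate test of likeness among arrays of the same group.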

How the data were processed

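Aortic RNA was measured on 12 one-colour arrays, with groups and doses taken from the labels. The authors deposited the scanner output, an intensity per spot made with Feature Extraction (version 10.7.1.1 per the file headers, 9.5.1.1 in the submitters' processing notes) by background subtraction. A second deposited table of processed intensity values ranked genes as the scanner values did (Spearman at least 0.99997), and its column medians were all 30.2. Its normalization to equal distributions makes it an alternative here. Log2 of the processed intensity, computed from the deposited values, was set against the 75th percentile of each array after control and outlier spots were removed. The filter kept a probe whose spots exceeded background on every array of some group (32283 of 55681), and the brightest stood for its gene. Group means were modelled in limma 3.58.1 (R 4.3.3), with Benjamini-Hochberg adjustment over all 22761 genes, and was tested on simulated data. Fits left 4 genes with a value missing on an array, none of them discussed. Gene names are those of the array design, and 14114 of the tested names are in the RefSeq table. Alternatives covered background correction, scaling, filter, probe choice, moderation, slide, replicate number and omission of each array. The 9 genes and all gene lists were chosen with earlier results of these data known. Named genes were all 9, the 3 genes with the smallest p of each list in the mean challenge response and the 3 genes most like each of the 9, of which 1 is not reported here. A few others are named in the text as chosen after their values were seen.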

Additional observations from a re-analysis of the deposited data

Results flagged for a closer look

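The genotype difference of Prelp had opposite signs before challenge (-0.16, SE 0.42) and at day 3 (0.72, SE 0.42), and the groups overlapped at both times. At day 3, WT replicate 4, at -0.08, lay above smSocs3-KO replicates 2 (-0.88) and 5 (-0.72). All 3 arrays labelled smSocs3-KO lay below the WT mean before challenge, and all 3 lay above the WT mean at day 3. The difference between these, the interaction, was 0.88 on the log2 scale (SE 0.59, limma adjusted p = 0.970) and did not pass the threshold. Without WT day 3 replicate 4 the day 3 difference was 1.28 (adjusted p = 0.0491), and without smSocs3-KO day 3 replicate 3 it was 0.38 (adjusted p = 0.743) and the interaction 0.54.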

How the results depend on the processing

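The count of proteoglycan genes past the adjusted threshold stayed at 0 in smSocs3-KO, between genotypes before challenge and in the interaction under all alternatives run. The share of all genes passing ran from 0.00879% to 8.43%, from 0% to 0.0615% and from 0% to 0.0439% in these comparisons. With single arrays left out, the share of all genes passing in WT ran from 0% to 15.9%. Between genotypes at day 3 it ran from 0.198% to 2.70%, and in the mean of both challenge responses from 11.1% to 28.3%. In the same order, the count of the 9 genes passing ran from 0 to 2, from 0 to 1 and from 0 to 3. The last count was 1 (Omd) with normexp background correction, with quantile normalization, with the authors' table of processed values, with only probes well above background on all 12 arrays and with trend and robust moderation, and 2 (Ogn and Omd) with normexp and quantile normalization together. In these settings between 21.2% and 25.6% of all genes passed. The adjusted p of Omd in the mean of both challenge responses ran from 0.0130 to 0.124 over its alternatives in limma. With the replicate block that count was 1 (Lum), where 3.93% of all genes passed, and in WT 0 genes of all did. Deviations of same-numbered arrays from their group means had correlations from -0.403 to 0.464. These cannot decide whether the numbers pair the samples, because arrays with different numbers were not compared. No pairing was used in the main fit. Setting arrays against their median moved the median of all genes in WT from -0.02 to 0.17 and that of the 9 genes from -0.34 to -0.14. Under all 26 alternatives the WT differences of Dcn, Lum, Fmod, Ogn, Prelp and Omd kept their sign, as did the day 3 genotype differences of Dcn, Fmod, Prelp, Omd and Podn, and so did the mean responses of Lum, Ogn, Prelp, Aspn, Omd and Podn under all 25. Many of these settings could not change a sign. Each gene had 1 probe, so filter, probe choice and moderation left its difference as it was. So did omission of arrays outside the 2 groups compared and, in WT, the slide block. A fit of only the groups compared has no value for the interaction or the mean response. The 3 arrays per group limit the precision, and an exact two-sided permutation test of 3 against 3 cannot give a p below 0.1.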
